A study of Mus musculus with 8 samples.

Results

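The 8 genes examined here belong to the cholesterol synthesis pathway and its transcriptional control, and they were taken by name from a fixed list out of 52636 gene identifiers measured in the mouse lung. The enzymes were Hmgcs1, Idi1, Fdft1, Sqle, Lss and Cyp51, together with the regulators Insig1 and Srebf2. The rule itself uses no measured value. Mice of the COPD model (COPD mice) had received porcine pancreatic elastase (PPE) into the trachea at 10 weeks of age and then lipopolysaccharide (LPS) in 3 doses from 12 weeks of age, and the control mice had received phosphate-buffered saline (PBS). Each kind of mouse was fed the control diet or, from 8 weeks of age, a diet with 2% TJ-41, the Japanese herbal medicine Hochuekkito. All mice were wild type male C57BL/6, and the age at which lung RNA was taken is not stated in the sources used here. Each of the 4 groups held 2 libraries, and nothing states which mice they came from, so that p-values may measure only the spread between these samples.

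Cholesterol is built from acetyl-CoA through mevalonate, isoprenoids, squalene and lanosterol. The supply is set largely by SREBP-2, the transcription factor encoded by Srebf2, which is held in the endoplasmic reticulum by INSIG proteins when sterols are plentiful and travels to the Golgi to be cut and released when sterols are scarce. Most enzymes of the pathway are SREBP-2 targets, and so is Insig1, whose product closes the loop. In the lung, sterols and fatty acids are needed by alveolar type II cells, which make surfactant, and alveolar macrophages take surfactant lipid up again.

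None of the 8 genes was called different between COPD mice and control mice or between the diets. In the same libraries 10 of 15 circadian clock genes, a list chosen with earlier results of these data known, were called between COPD and control mice. Calls were rare among all genes, at 0.443% of the 20546 tested for COPD against control mice over both diets and at 0% to 0.00487% for the diets, so that 0 of 8 sets the members apart from no other genes. For 7 of the 8 genes the highest of the 8 libraries was 1.21 to 1.57 times the lowest, and for Fdft1 it was 2.59 times. All 8 genes passed the filter on low counts, and each was covered by 280 to 3121 reads per library, far above the floor of 3 counts. The lowest count, 280, was that of Fdft1 and the highest, 3121, that of Srebf2.

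The promoters are shown for the members whose window carried a core of the sterol regulatory element, the sequence that SREBP binds, or an E-box, which is bound by clock factors and by SREBP-1. The RefSeq windows of GRCm38.p6 run from 250 bases before to 50 bases after the gene start, and 6 of the 8 genes had one, Sqle and Fdft1 being without. The windows below are Hmgcs1 at chr13:119690101-119690400, Srebf2 at chr15:82147019-82147318 and Insig1 at chr5:28071162-28071461, all on the plus strand and written 5′ to 3′. Capitals mark TCACNCCA, a core of the sterol element, in Hmgcs1 and Srebf2, and the E-box CACGTG in Insig1.
Hmgcs1: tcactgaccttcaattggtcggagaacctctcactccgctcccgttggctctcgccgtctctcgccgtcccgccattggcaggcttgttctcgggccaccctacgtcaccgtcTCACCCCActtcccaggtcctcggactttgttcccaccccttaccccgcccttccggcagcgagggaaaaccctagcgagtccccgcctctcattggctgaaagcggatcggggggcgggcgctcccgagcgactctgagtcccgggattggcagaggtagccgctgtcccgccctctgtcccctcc
Srebf2: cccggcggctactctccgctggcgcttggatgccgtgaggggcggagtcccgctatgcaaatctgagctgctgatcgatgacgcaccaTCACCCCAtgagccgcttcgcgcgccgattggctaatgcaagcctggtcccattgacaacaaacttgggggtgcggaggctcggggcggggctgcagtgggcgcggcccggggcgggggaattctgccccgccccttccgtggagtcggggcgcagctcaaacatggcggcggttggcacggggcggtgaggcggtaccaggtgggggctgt
Insig1: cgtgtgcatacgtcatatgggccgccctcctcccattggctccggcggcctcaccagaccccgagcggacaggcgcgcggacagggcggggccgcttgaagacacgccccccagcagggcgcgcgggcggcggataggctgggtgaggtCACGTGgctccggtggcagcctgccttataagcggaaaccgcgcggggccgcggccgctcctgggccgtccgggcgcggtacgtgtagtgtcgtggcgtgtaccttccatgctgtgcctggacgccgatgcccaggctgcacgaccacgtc
Searched on both strands, the core TCACNCCA was present in 2 of the 6 windows and in 4.362% of the 32851 RefSeq windows of the same length. The E-box CACGTG was present in 1 of the 6 windows and in 7.15% of all windows. Each of the 6 windows held at least 1 CCAAT, the letters read by NF-Y, and at least 1 GGGCGG, the letters read by Sp1, which occurred in 37.408% and 35.658% of all windows. These are matches of letters only.

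On GRCm38 with GENCODE M21, Hmgcs1 lies at chr13:119690379-119708260 and Idi1 at chr13:8885501-8892451, both on the plus strand. Sqle at chr15:59315077-59331192 and Srebf2 at chr15:82147181-82205379 share another chromosome and strand. Lss lies at chr10:76531588-76557138 and Insig1 at chr5:28071363-28078662, both on the plus strand, and Cyp51 at chr5:4081145-4104746 on the minus strand. Levels of some genes are less certain because other genes hold the same sequence, elsewhere or on the opposite strand of the same place. Of the 50-base stretches of their transcripts, 26.54% in Fdft1, 25.29% in Idi1 and 11.57% in Hmgcs1 also occur in other genes. In the other members it was 0.04% to 2.77%. Both strands were searched, so overlapping exons on the opposite strand enter these shares. In Hmgcs1, 537 stretches were shared, and 557 exon bases overlap an antisense transcript. How reads shared between genes were counted is not stated. Antisense or unclassified transcripts overlap 12.12% of the exon bases of Hmgcs1, 9.22% of those of Idi1 and 3.53% of those of Lss, and these transcripts had at most 8 counts in any library.

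The genes were then set in order of level, as TPM, which divides the counts of a gene by its exon length and scales every library to the same total. Insig1, which encodes the sterol-sensing retention protein, had the highest median over the 8 libraries at 81.4 TPM with a range from 66.6 to 108. It was followed by Hmgcs1, the synthase that makes HMG-CoA, at 61.1 TPM with a range from 46.2 to 71.5. Srebf2 had a median of 46.4 TPM with a range from 38.8 to 59.5. Neighbours among these leading genes overlapped in range.
Cyp51, the lanosterol demethylase, had a median of 28.3 TPM with a range from 25.9 to 34.5, Idi1, the isopentenyl diphosphate isomerase, one of 27.4 TPM with a range from 23.3 to 32.3, and Sqle, the squalene epoxidase that acts at a regulated oxygen-using step, one of 24.0 TPM with a range from 15.3 to 27.3. Their ranges overlapped with each other, and all of their libraries lay below every library of Srebf2. Fdft1, which makes squalene, had a median of 12.4 TPM with a range from 9.29 to 17.8 and Lss, which closes the ring to lanosterol, one of 9.97 TPM with a range from 6.36 to 13.0. These ranges overlapped as well, and that of Fdft1 also overlapped that of Sqle. The value for Lss depends on its annotated exon length of 10787 bases, the longest of the 8 genes.

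Before the comparisons, the libraries themselves were compared. The totals ran from 18767295 to 20888042 counts. The library of COPD mice on the control diet, replicate 2, stood apart, with an SD of log2 differences from the mean of the other 7 libraries of 0.627 over 18038 genes, where the others had 0.29 to 0.411. Its deviations ran with gene length at a Spearman's rho of -0.338 and with GC content at 0.424 across genes, which are not independent replicates. Such trends were not particular to it. Over the 8 libraries the rho ran from -0.368 to 0.357 with gene length and from -0.539 to 0.424 with GC content. Replicate 1 of COPD mice on the control diet had -0.539 with GC content. No gene of the mitochondrial genome had a count in any library. Values without replicate 2 of COPD mice on the control diet follow for Fdft1 and Lss.

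**Figure D1:**
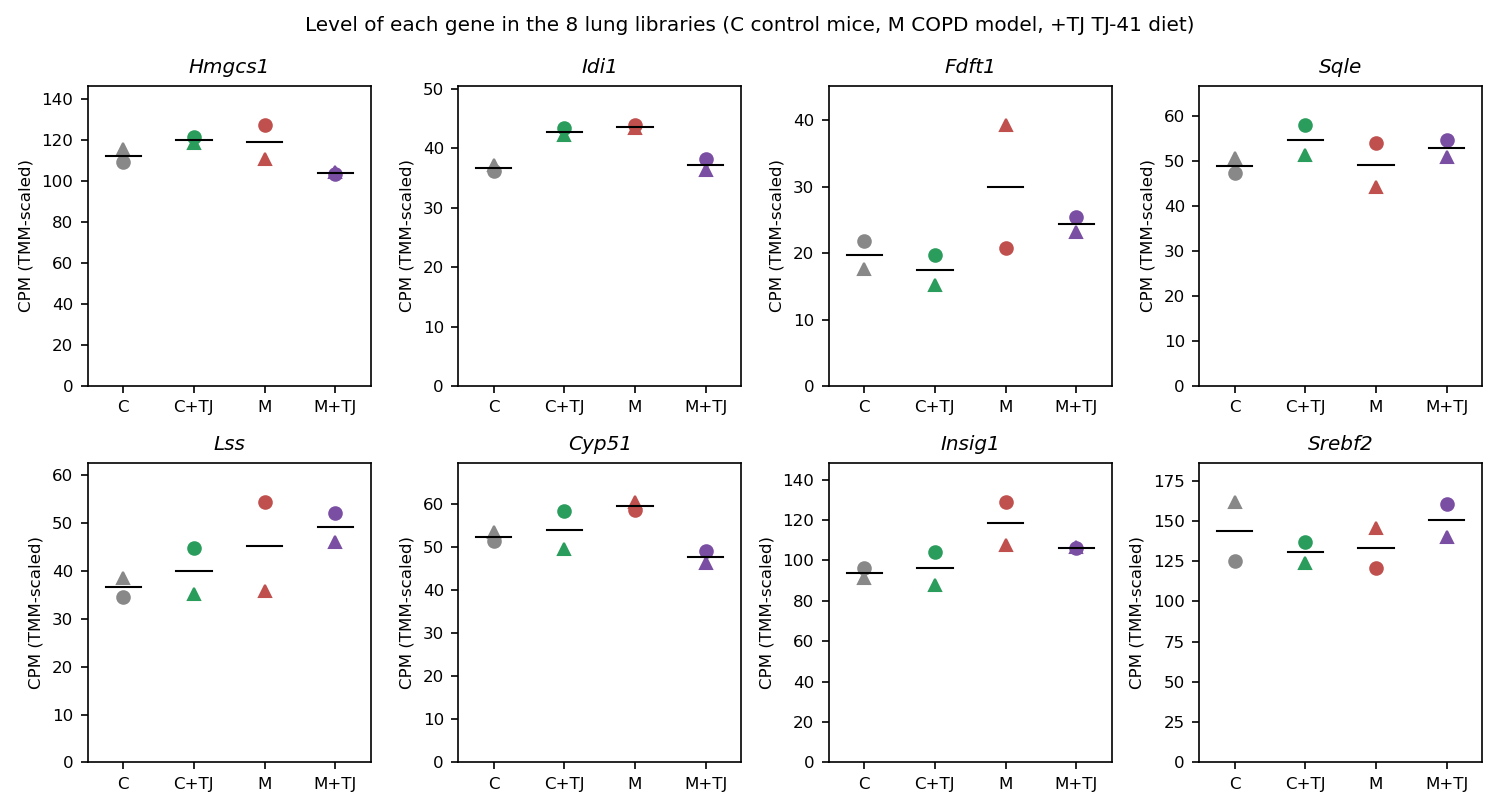
Levels of the 8 genes in CPM (read counts scaled to library size by TMM, vertical axis from 0) in each library of the 4 groups on the horizontal axis (C control mice, M COPD mice, +TJ with the TJ-41 diet). Circles are replicate 1, triangles replicate 2 and bars the mean of the 2 libraries. Idi1 stays between 36.2 and 43.9 CPM, whereas Fdft1 reaches 39.3 CPM in a single library of COPD mice.

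Hmgcs1 stood at the entry of the pathway and had the smallest SD of the 8 genes over the libraries. In control mice on the control diet its levels, as read counts scaled to library size (CPM), were 109 and 116, on the TJ-41 diet 122 and 119 CPM. In COPD mice they were 127 and 111 CPM on the control diet and 103 and 104 CPM on the TJ-41 diet. The highest library was 1.23 times the lowest. The SD of its log2 CPM over the 8 libraries was 0.107, which lay at percentile 7.65 among the 11873 genes whose mean reached 10 CPM, whose median SD was 0.215.
Over both diets, the log2 fold change of COPD mice against control mice was -0.06 (SE 0.11, 95% interval from -0.31 to 0.18), and the adjusted p was 0.833 (edgeR quasi-likelihood test, Benjamini-Hochberg adjusted over all genes tested, as are all adjusted p-values that follow). The ranges of the model and of the control mice overlapped.

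Idi1, which provides the isoprenoid that is joined into longer chains, had replicates close to each other. The pairs were 36.2 and 37.1 CPM in control mice on the control diet and 43.4 and 42.2 CPM on the TJ-41 diet. They were 43.9 and 43.4 CPM in COPD mice on the control diet and 38.2 and 36.3 CPM on the TJ-41 diet. The pooled SD within groups, 0.032 on the log2 scale, lay at percentile 0.194 of the same genes and below the SD of 0.0521 that counting alone would give at this depth.
The levels thus lay crosswise, with the control mice on the TJ-41 diet and the model on the control diet above the other groups. The log2 fold change with the TJ-41 diet was 0.22 (SE 0.15) in control mice and -0.23 (SE 0.15) in COPD mice. The difference between these diet effects was -0.45 (SE 0.21, 95% interval from -0.93 to 0.02), and it was not called (unadjusted p = 0.0599, adjusted p = 0.999, edgeR). Over both diets the model and the control mice differed by a log2 fold change of 0.03 (SE 0.11).

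Fdft1, squalene synthase, was the most variable of the 8 genes. Control mice had 21.9 and 17.5 CPM on the control diet and 19.7 and 15.1 CPM on the TJ-41 diet. COPD mice had 20.8 and 39.3 CPM on the control diet and 25.5 and 23.2 CPM on the TJ-41 diet. The replicates of the model on the control diet differed more than any other pair, and its replicate 1 lay within the range of the control mice.
The SD over the 8 libraries, 0.409, lay at percentile 90.4. The log2 fold change of COPD mice over both diets was 0.54 (SE 0.21, 95% interval from 0.07 to 1.02), with an unadjusted p of 0.0282 and an adjusted p of 0.403 in edgeR. Without replicate 2 of the model on the control diet it was 0.28, and without replicate 1 of that group it was 0.74 with an adjusted p of 0.00659 (edgeR), which stayed under the fold limit for a call. With the TJ-41 diet in COPD mice, the log2 fold change of Fdft1 was -0.30 (SE 0.29), which became 0.23 when replicate 2 on the control diet was left out.

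Fdft1 shares exon bases with a gene on the opposite strand. Fdft1 lies on chromosome 14 at chr14:63145150-63179578 on the minus strand (GRCm38, GENCODE M21), and 774 of its 4227 exon bases, or 18.31%, overlap exons of Ctsb on the plus strand, the gene of the lysosomal protease cathepsin B. The strand setting of the counting is not stated, and without strand the reads of the 2 genes cannot be told apart there. Ctsb had 393, 367, 355 and 339 CPM in the control mice, 347 and 614 CPM in the model on the control diet and 442 and 461 CPM in the model on the TJ-41 diet.
The highest library was the same for both genes. Over the 8 libraries the log2 levels of Fdft1 and Ctsb had a Pearson's r of 0.936 (exact permutation p = 0.00223, adjusted 0.00446 over 2 relations) and a Spearman's rho of 0.881 (exact permutation p = 0.00724, adjusted 0.0145), both two-sided. Without the 2 libraries farthest from the median of Ctsb, r was 0.815. The other relation, of Cyp51 with Akap9, which overlaps 3.76% of its exon bases, had an r of -0.258 and a rho of 0.0476 (exact permutation p = 0.537 and 0.935, the same after adjustment). Without its 2 farthest libraries this r was 0.551. The permutations treated the 8 libraries as exchangeable, although they fall in 4 groups, so differences between groups enter these p-values. These relations were chosen after the overlaps were seen, and the part of the shared exon bases in the level of Fdft1 was not tested. Ctsb itself had a log2 fold change of 0.36 (SE 0.17, adjusted p = 0.519, edgeR) in the model over both diets.

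**Figure D2:**
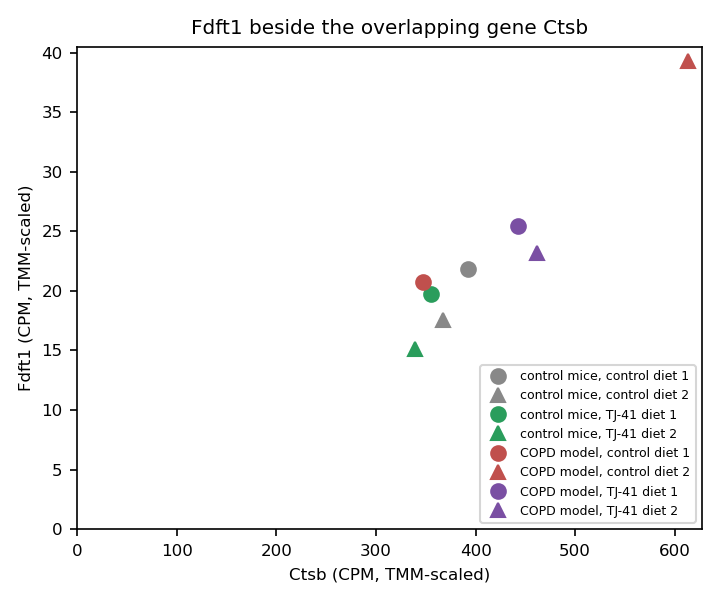
Level of Fdft1 (vertical axis) against that of Ctsb (horizontal axis), both in CPM, TMM-scaled, with an axis from 0, in the 8 libraries, with circles for replicate 1 and triangles for replicate 2. The library of COPD mice on the control diet, replicate 2, is the highest for both, at 39.3 and 614 CPM.

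The later enzymes varied less. Sqle had 47.3 and 50.6 CPM in control mice on the control diet, 57.9 and 51.3 CPM on the TJ-41 diet, 54.1 and 44.2 CPM in the model on the control diet and 54.6 and 50.9 CPM on the TJ-41 diet. All 4 groups overlapped with at least 1 other group, and the log2 fold change of the model over both diets was -0.02 (SE 0.12, 95% interval from -0.29 to 0.24).
Lss had 34.6 and 38.5 CPM in control mice on the control diet, 44.7 and 35.1 CPM on the TJ-41 diet, 54.4 and 35.7 CPM in the model on the control diet and 52.1 and 46.1 CPM on the TJ-41 diet. In all, 3 of the 4 model libraries lay above every control library, and the fourth, the library that stood apart, lay among the control libraries. The log2 fold change was 0.30 (SE 0.16, 95% interval from -0.06 to 0.66, adjusted p = 0.562, edgeR). It was 0.44 without that library.
Cyp51 had 51.5 and 53.5 CPM in control mice on the control diet, 58.4 and 49.7 CPM on the TJ-41 diet, 58.7 and 60.7 CPM in the model on the control diet and 49.1 and 46.5 CPM on the TJ-41 diet. Within the model, both libraries on the TJ-41 diet lay below both on the control diet, and the log2 fold change with the diet was -0.32 (SE 0.15, 95% interval from -0.67 to 0.03). This was not called (unadjusted p = 0.0664, adjusted p = 0.991, edgeR). Over both diets the model differed from control mice by 0.0031 on the log2 scale (SE 0.11, 95% interval from -0.24 to 0.25).

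Of the regulators, neither Insig1 nor Srebf2 was called. Insig1 had 96.5 and 91.5 CPM in control mice on the control diet and 104 and 88.0 CPM on the TJ-41 diet. It had 129 and 107 CPM in COPD mice on the control diet and 106.2 and 106.4 CPM on the TJ-41 diet. All 4 model libraries were higher than all 4 control libraries, by a narrow margin of 106.2 against 104.2 CPM.
Insig1 was the only 1 of the 8 genes with this separation, which 3.35% of the 20546 genes tested showed in that direction and 3.43% in the other, and nothing is read from a single gene. No member separated the TJ-41 from the control diet over both kinds of mice, which 0.647% of genes did upward and 0.73% downward. The log2 fold change of Insig1 in the model was 0.24 (SE 0.12, 95% interval from -0.03 to 0.50), and it was not called (unadjusted p = 0.0719, adjusted p = 0.524, edgeR). Leaving out each library in turn moved it between 0.17 and 0.31.
Srebf2 had 125 and 162 CPM in control mice on the control diet, 137 and 124 CPM on the TJ-41 diet, 121 and 145 CPM in the model on the control diet and 161 and 140 CPM on the TJ-41 diet. The range of the control mice, from 124 to 162 CPM, was close to that of the model, from 121 to 161 CPM. The log2 fold change was 0.05 (SE 0.13, 95% interval from -0.25 to 0.35).

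**Figure D3:**
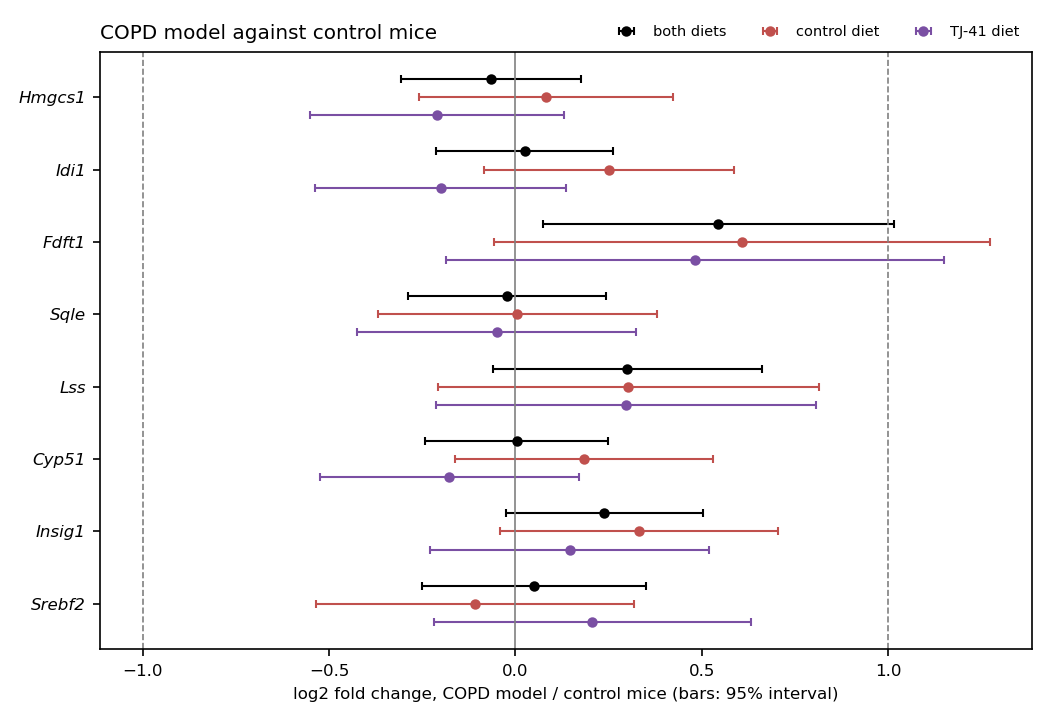
Log2 fold changes (horizontal axis) of the 8 genes (vertical axis) in COPD mice against control mice, over both diets and on each diet, with 95% intervals as bars and dashed lines at a log2 fold change of 1 in either direction. Only the interval of Fdft1 over both diets leaves out 0, and it runs from 0.07 to 1.02.

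The comparison of COPD mice with control mice asked which genes differed with the lung injury. Over both diets, 0 of the 8 genes were called at an adjusted p under 0.05 with a log2 fold change beyond 1, against 0.443% of all genes tested. Of the 8, 1, Fdft1, had an unadjusted p under 0.05 in edgeR, beside 10.4% of all genes tested. In DESeq2 it was also 1 of the 8, beside 1973 of all genes. In sign, 6 were above 0 and 2 below, with a median log2 fold change of 0.04 beside -0.0017 over all genes. The intervals of the 8 genes together ran from -0.31 to 1.02, which is 0.809 to 2.02 in fold, and the median width of their intervals was 0.53 on the log2 scale beside 0.85 over all genes. Without Fdft1, the widest reach upward was that of Lss, to a fold of 1.58.
On the control diet 0 of 8 were called, against 0.122% of all genes, with 7 above 0 and 1 below, Srebf2 at -0.11. The adjusted p-values were 0.691 or higher in edgeR, and 0 of 8 had an unadjusted p under 0.05 in edgeR or in DESeq2. Of all genes, 7.7% had one in edgeR. On the TJ-41 diet 0 of 8 were called, against 0.0779% of all genes, with 4 above 0 and 4 below. Again 0 of 8 had an unadjusted p under 0.05 in edgeR or in DESeq2, beside 6.56% of all genes in edgeR. Here Hmgcs1, Idi1 and Cyp51 had log2 fold changes of -0.21, -0.20 and -0.18, where on the control diet theirs were 0.08, 0.25 and 0.18.

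The comparison of diets asked which genes differed with TJ-41. In control mice 0 of 8 were called, and 0% of all genes, with 6 of the 8 above 0 and a median of 0.07. In COPD mice 0 of 8 were called, against 0.00487% of all genes, with 3 above 0 and 5 below and a median of -0.18. Over both kinds of mice, and for the difference between the diet effects, 0 of 8 were called and again 0% of all genes. DESeq2 gave no member an adjusted p under 0.05 in any of these comparisons, and neither tool gave a member an unadjusted p under 0.05.
Of all genes, 336 had an unadjusted p under 0.05 for the diet in control mice, 842 in the model, 509 over both and 672 for the difference, in edgeR. DESeq2 called 11, 10, 5 and 17 genes in the same order. The difference between the diet effects was below 0 for 7 of the 8 genes, Srebf2 at 0.31 (SE 0.27) being the other, with a median of -0.16 beside -0.01 over all genes. Its size was greatest for Idi1 and Cyp51, the latter at -0.36 (SE 0.22), followed by Srebf2 and by Hmgcs1 at -0.29 (SE 0.21). The comparisons within a diet and those within a kind of mouse share libraries.

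How the 8 genes varied together was described over the libraries. Their mean standardised level was highest in the model on the control diet, replicate 1, at 0.77, and lowest in the control mice on the control diet, replicate 1, at -0.68. Over the 28 pairs of genes the correlations of log2 CPM across the 8 libraries, which share the 4 groups, ran from -0.536 to 0.756 with a median of 0.152, and 19 were above 0. The genes of at least 10 CPM that followed the mean most closely, of 11805 searched, were Mycl, Wdr73, Scfd2, Hirip3 and Ttc12, with Pearson's r from 0.865 to 0.924 over the 8 libraries.

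Of the 20 cholesterol synthesis genes, all tested, 0 were called in COPD mice over both diets, beside 0.443% of all genes, with 13 above 0 and 7 below and a median log2 fold change of 0.03. In edgeR an unadjusted p under 0.05 was reached by 3 of the 20, beside 10.4% of all genes tested, namely Acat2, which makes acetoacetyl-CoA, at 0.35, Mvd, the mevalonate diphosphate decarboxylase, at 0.53, and Fdft1.
Fdps, whose levels were only 1.52 to 3.65 CPM and 26.2% of whose 50-base stretches also occur in other genes, had 0.48 (SE 0.26). Of the enzymes after lanosterol, Msmo1 had 0.01, Nsdhl -0.12 and Dhcr7 0.03. Among the 20 genes, only Hsd17b7 had all 4 model libraries lower than the 4 control libraries, with a log2 fold change of -0.30 (SE 0.14, adjusted p = 0.503, edgeR), against the 3.43% given above.
The library that stood apart was the highest of the 8 for 7 of these 20 genes, among them Fdft1, Cyp51, Acat2 and Mvd, and the lowest for 4, among them Sqle. The other library of its group was the highest for 5, among them Hmgcs1, Idi1 and Lss. Without the library that stood apart, Acat2 was at 0.22, Mvd at 0.26 and Fdft1 at 0.28 in COPD mice over both diets, each smaller than with it. Others grew when it was left out. Lss went from 0.30 to 0.44, Fdps from 0.48 to 0.61 and the regulator Insig1 from 0.24 to 0.31.

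**Figure D4:**
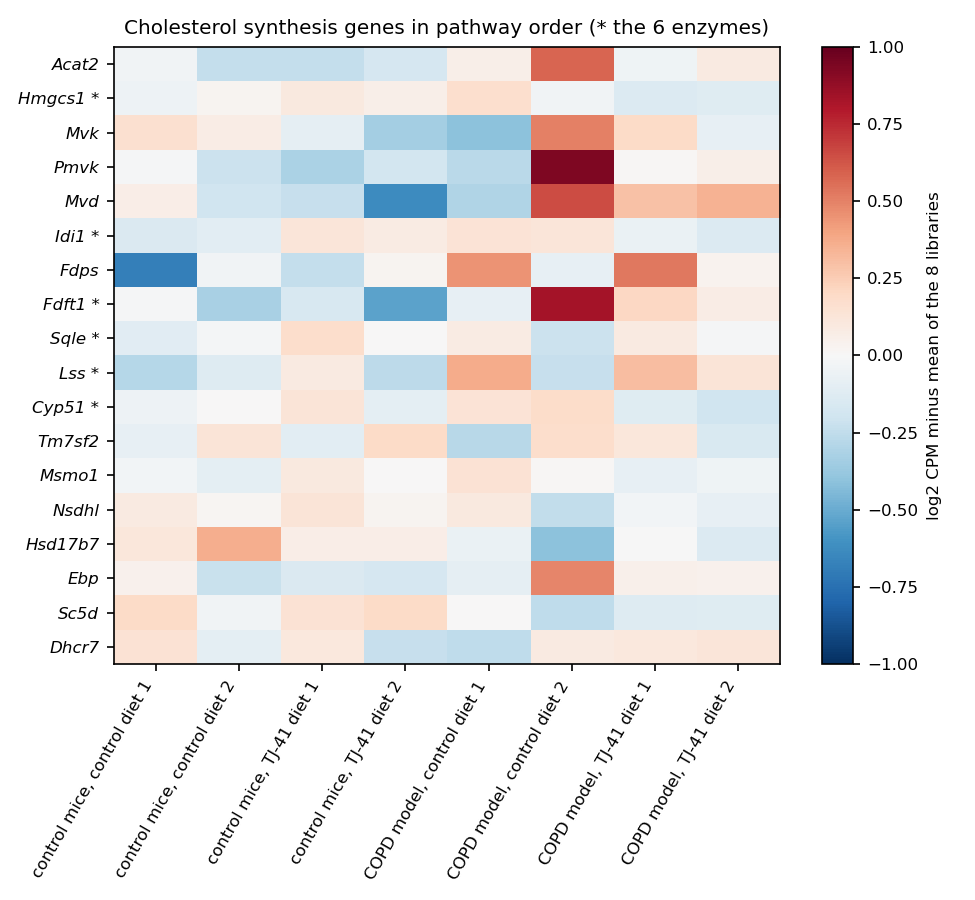
Log2 CPM of 18 cholesterol synthesis genes (rows, from the start of the pathway to its end, asterisks on the 6 enzymes described above) in the 8 libraries (columns), as the difference from each gene's mean over the libraries. Colour runs from -1 to 1, and the strongest colours lie in replicate 2 of COPD mice on the control diet, which is the highest library for 7 genes and the lowest for 4.

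The neighbouring lipid pathways were measured in the same way. Of the 7 genes of the SREBP machinery 0 were called, with 5 above 0 and 2 below and a median of 0.05. Srebf1, which drives fatty acid genes, had a log2 fold change of 0.13 (SE 0.16), Scap, the escort of SREBP, 0.22 (SE 0.16) and Insig2, the other retention protein, -0.01 (SE 0.11). Of the 10 genes for sterol uptake and other SREBP-2 targets, 8 were tested, 0 were called, 7 were above 0 and the median was 0.24.
In that list Stard4, a sterol carrier, had 0.0021 (SE 0.13), while Npc2, which carries cholesterol out of the lysosome, had 0.59 and Scarb1, the HDL receptor, 0.40, both with an unadjusted p under 0.05 in edgeR (0.0059 and 0.0413) and adjusted p-values of 0.222 and 0.456.
Of 15 fatty acid genes 0 were called, with 7 above 0 and 8 below and a median of -0.02. Scd1 and Scd2, the stearoyl-CoA desaturases, both had -0.04, Acly, which supplies acetyl-CoA, -0.05, and Fasn, the fatty acid synthase, 0.21 (SE 0.15). Elovl6, which lengthens fatty acids, had -0.41 with an unadjusted p of 0.037 in edgeR. Between the diets in COPD mice, 10 of the 15 were above 0 and 5 below, 0 were called, and the median was 0.06 with values from -0.57 to 0.72. Elovl5, an elongase, had -0.29 (SE 0.19) and Me1, the malic enzyme, -0.46 (SE 0.28) there. Fasn was at 348 and 355 CPM in the model on the control diet and at 604 and 549 CPM on the TJ-41 diet, a log2 fold change of 0.71 (SE 0.22, unadjusted p = 0.00898, adjusted p = 0.991, edgeR), while Srebf1 had 0.41 (SE 0.23) and Srebf2 0.18 (SE 0.19) in that comparison.
Of 10 genes of sterol efflux 0 were called, with a median of 0.06. The transporters Abca1 and Abcg1 had 0.08 and -0.07, and Nr1h3, the oxysterol receptor LXR alpha, had 0.25. Apoe, the apolipoprotein, had 0.59 and Ch25h, which makes 25-hydroxycholesterol, 1.10, with adjusted p-values of 0.445 and 0.386 in edgeR. The library that stood apart was the highest of the 8 for Apoe, Ch25h, Npc2 and Scarb1. Without it Apoe was at 0.27, Ch25h at 0.47, Npc2 at 0.40 and Scarb1 at 0.18, and of these Npc2 still had an unadjusted p under 0.05 in edgeR (0.00441, adjusted p = 0.122).

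Clock genes, measured in the same libraries, held called changes. This list was chosen with earlier results of these data known, so its calls are no independent check of the design. Its called changes were also larger than the changes of the 8 genes, and they do not show whether smaller changes could be called. Of 15 clock genes, 8 were called higher and 2 lower in COPD mice over both diets. In sign, 12 were above 0 and 3 below, and the median log2 fold change of the list was 1.40. Dbp, a transcription factor driven by the clock, was at 8.76 to 21.3 CPM in control mice and at 185 to 200 CPM in the model, a log2 fold change of 3.89 (SE 0.14, adjusted p = 9.1e-06, edgeR). Arntl, the core activator also called BMAL1, fell by 2.93 on the log2 scale (SE 0.26), and its partner Npas2 fell by 2.71 (SE 0.25). Per2, a repressor of the loop, rose by 1.90 (SE 0.20) and Nr1d1, the nuclear receptor REV-ERB alpha, by 1.40 (SE 0.15). Per3, Nr1d2, Tef, Hlf and Bhlhe41 were also called higher, and on each diet alone 6 clock genes were called higher and 2 lower. The hour at which lungs were taken is not given in the sources used here, and its part in these values was not tested.

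**Figure D5:**
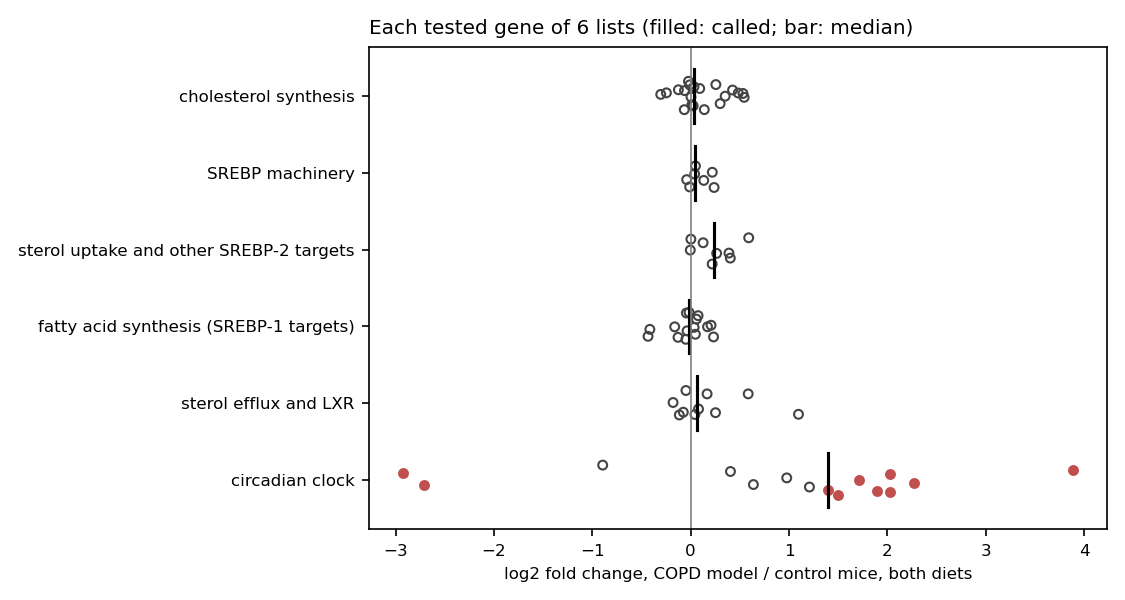
Log2 fold change (horizontal axis) of every tested gene in COPD mice against control mice over both diets, for 6 gene lists (rows, vertical scatter without meaning), with filled points for called genes and bars for list medians. The 5 lipid lists hold no called gene and have medians from -0.02 to 0.24, and the clock list has 10 called genes and a median of 1.40.

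In whole lung RNA, fewer cells of a type and less RNA per cell cannot be told apart, and markers of the cell types that handle lipid were read beside the 8 genes. All 10 alveolar type II markers were detected, with a summed level from 19452 to 27567 CPM in control mice and from 23517 to 39834 CPM in COPD mice, and 9 had a log2 fold change above 0 with a median of 0.20. The summed level of the 10 alveolar macrophage markers was 735 to 908 CPM in control mice and 1056 to 1761 CPM in the model, higher in all 4 model libraries, although 5 of the markers lay above 0 and 5 below and 0 were called. Most of the sum was Chil3, at 371 to 476 CPM in control mice and 625 to 1387 CPM in the model. Ctsk was also higher in all 4 model libraries, at 21.7 to 33.9 CPM in control mice and 36.2 to 77.3 CPM in the model. Siglecf lay the other way, at 12.2 to 21.8 CPM in control mice and 2.87 to 9.25 CPM in the model, with all 4 model libraries lower, and the ranges of Krt79 and Fabp1 also lay lower in the model while overlapping those of control mice.
Between the diets in COPD mice, the 6 cardiac muscle markers had a median log2 fold change of -1.24, and 6 of 6 had an unadjusted p under 0.05 in edgeR, although 0 were called. Their summed level was 462 and 603 CPM on the control diet and 270 and 222 CPM on the TJ-41 diet. The 7 neutrophil markers tested were all above 0 in that comparison, with a median of 0.82, and 0 were called. The summed level of the 8 listed was 232 and 73.8 CPM on the control diet, the lower value being that of the library that stood apart. On the TJ-41 diet it was 154 and 370 CPM, so the libraries of the 2 diets overlapped.
For both the type II cell and the macrophage list the highest sum was that of the library that stood apart, as it was for Fdft1. Single markers were split there. Sftpc made up most of its type II sum, at 25920.5 of 39834 CPM. Sftpc, Sftpa1 and Sftpd were highest in that library, Abca3 and Lamp3 lowest, and the other type II markers between. Of the macrophage markers, Chil3, Marco and Ctsk were highest there, Siglecf, Ear2, Fabp1, Krt79 and Mrc1 lowest, and the others between. The summed adipocyte markers ran from 35.1 to 56.6 CPM in control mice and from 50.1 to 101 CPM in the model. No marker of any of the 8 cell type lists was at 0 in all libraries. Jchain, a plasma cell gene, with a log2 fold change of 2.64, and Cyp2e1, from the hepatocyte list, with 1.03, were the only markers called between COPD and control mice over both diets. Of the 3 hepatocyte markers tested, 2 were above 0 and 1 below, with values from -2.67 to 1.03. The part of these cell types in the values of the 8 genes was not tested.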

How the data were processed

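The authors deposited whole-number read counts per Ensembl gene for each of the 8 lung libraries, without normalization. The submitters' processing notes name HISAT2, edgeR and the genome build mm10, while the methods of the study name CLC Genomics Workbench, and neither the strand setting nor the handling of shared reads is given in the sources used here. The labels write the diet as TJ41 and TJ4, and both were read as TJ-41. Of the 52636 identifiers, 52489 were found in GENCODE M21, which gave names and exons.

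The quasi-likelihood test of edgeR 4.0.16 (R 4.3.3) was used, with filterByExpr (minimum count 10, total 15), TMM scaling and a fit of 4 group means with 4 residual degrees of freedom, over 7 comparisons. The common biological coefficient of variation was 0.208. The standard error was the log2 fold change divided by the square root of F, and intervals are at 95%. Calls needed a Benjamini-Hochberg adjusted p under 0.05 over 20546 genes and a log2 fold change beyond 1. A level of 3 counts, taken as the floor, equals 0.153 to 0.162 CPM, and counting error alone enters it. The permutation tests used scipy.

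The genes named were the 8 members, a set of other pathway genes given whatever their values, any list gene called, and the 5 genes most like the mean of the members. Hsd17b7, Npc2, Scarb1, Elovl6, Apoe, Ch25h, Acat2, Chil3, Siglecf, Krt79, Fabp1, Elovl5, Me1, Alb, Ctsb and Akap9 were named after their values were seen. So were Sftpc, Sftpa1, Sftpd, Abca3, Lamp3, Marco, Ctsk, Ear2 and Mrc1. Members and lists were chosen with earlier results of these data known. Alternatives were DESeq2 1.42.0, other scalings, filters and fits, the replicate block, and each library left out. The scripts were tested on simulated data. Some genes of the lists are not reported here by name.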

Additional observations from a re-analysis of the deposited data

Results flagged for a closer look

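Among the 4 COPD libraries over both diets, the level of Insig1 in replicate 1 on the control diet, 129 CPM, lay apart from the other 3, which ran from 106.2 to 107 CPM. Its gap to the nearest library took 0.947 of the range of the group, above the 95% critical value of Dixon's test for 4 samples. Chance alone puts about 1 in 20 groups beyond this limit, and 16 groups were looked at for the 8 genes.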

How the results depend on the processing

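The number of members called was 0 under all 120 alternatives over the 7 comparisons. Of 904 alternatives for the log2 fold changes of single members, 71 changed the sign and 2 had an adjusted p under 0.05 in edgeR. Both were Fdft1 without replicate 1 of COPD mice on the control diet, where a lone library was assumed to vary like the other groups, at 0.74 over both diets and 0.99 on the control diet (adjusted p = 0.00659 and 0.0157), and neither passed the fold limit. For COPD mice over both diets, Cyp51 was at -0.016 with library size alone and at -0.0027 with all genes of at least 1 count, and with length and GC content corrected, an alternative chosen after seeing the data, Hmgcs1 was at 0.028 and Sqle at 0.019. Leaving out each library in turn moved Sqle from -0.098 to 0.053, Cyp51 from -0.059 to 0.064, Srebf2 from -0.035 to 0.15 and the median of the cholesterol synthesis list from 0.0036 to 0.094. On the control diet Lss ran from -0.036 to 0.58. For the TJ-41 diet, Fdft1 ran from -0.69 to 0.23 in COPD mice and from -0.44 to 0.022 over all mice, with the value above 0 in both when replicate 2 of COPD mice on the control diet was left out.

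Leaving out replicate 2 of COPD mice on the control diet for the other list genes was added after seeing the data, and the 10 clock genes, Jchain and Cyp2e1 were still called.

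The replicate numbers did not pair libraries, as the replicate differences correlated from -0.234 to 0.108 between groups. With the replicate block 0 members were called, 74 genes in place of 91 were called over both diets, and Fdft1 was at 0.54.

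DESeq2 called more genes than edgeR, with 246 against 91 for COPD mice over both diets, 172 against 25 on the control diet, 121 against 16 on the TJ-41 diet, 11 against 0 for the diet in control mice, 10 against 1 in COPD mice, 5 against 0 over all mice and 17 against 0 for the difference. With length and GC content corrected, 26 in place of 16 genes were called on the TJ-41 diet. With 2 libraries in a group, the median 95% interval of the members spanned 0.53 on the log2 scale over both diets and 0.75 on the control diet. These are full widths and no limits of detection. A call also needed a log2 fold change beyond 1, so smaller differences could not be called. Why the results moved with the processing was not tested.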

Other observations

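The remaining marker lists were read as summed levels in the 8 libraries. B and plasma cell markers ran from 612 to 744 CPM in control mice and from 757 to 1401 CPM in COPD mice. Hepatocyte markers ran from 12.7 to 52.6 CPM and from 28.6 to 35.4 CPM, and ciliated cell markers from 299 to 387 CPM and from 323 to 414 CPM, in control and COPD mice.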
